A study of Mus musculus with 23 samples.

Results

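The colon mucosa of PPARα knockout (KO) mice was compared with that of wild-type (WT) mice while both were fed a heme diet. The comparison rests on 12 of the 23 arrays of the study, 6 from KO heme mice and 6 from WT heme mice. A gene was a member when its mean signal exceeded 20 in either of these groups, which held for 14191 of the 18820 genes measured. Each gene was represented by 1 probe set, the brightest over the 23 arrays, and signal is given on the linear scale (2 to the power of the deposited log2 value) unless log2 is stated. A gene was called when its limma adjusted p was below 0.01, and a fold change is always KO minus WT on the log2 scale.

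PPARα is a nuclear receptor that is switched on by fatty acids and related lipids. It binds DNA as a heterodimer with RXR and raises transcription of genes for uptake, binding and oxidation of fatty acids in mitochondria, peroxisomes and microsomes. In the colon it is found in epithelial cells, where luminal lipids and microbial products are among its possible ligands.

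The study asked whether PPARα affects the response of the colon epithelium to dietary heme, the iron porphyrin of red meat. Mice were males of 7 to 9 weeks, housed singly, that received a high fat diet (40% of energy as fat, 30 µmol calcium per g) without heme or with 0.5 µmol heme per g for 14 days. The substrain was 129S1/SvImJ for WT mice. KO mice belonged to 129S4/SvJae-Pparatm1Gonz/J, and every tissue of these mice carries the disrupted ligand-binding domain of the receptor. Each array held 100 ng of RNA from the scraped mucosa of 1 mouse, with proximal and distal scrapings pooled. Genotype and substrain changed together, so that they cannot be told apart in any value below. The KO control and WT control arrays (6 and 5, after the study left out 1 WT control array) served to show the same genotype difference without heme.

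Array medians on the log2 scale lay between 5.80 and 5.87 over the 12 arrays. All 21 differentiated colonocyte markers and all 8 goblet cell markers measured had signal above 20. One array, KO heme array 1, stood apart. Its mean correlation with the other arrays of its group was 0.984, against 0.989 to 0.992 for the other KO heme arrays and 0.989 to 0.994 in WT heme. It also held the highest signal of B and plasma cell markers, with a list mean of 8.45 on the log2 scale against 6.21 to 7.31 in the other 5 KO heme arrays and 6.57 to 7.08 in WT heme. Values without this array are given for part of the results, and where none is given a value can depend on it. In whole mucosa, fewer cells of a type and less RNA per cell cannot be told apart.

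On the heme diet, KO mice had signals of Fabp1 and Cyp4a31 at the level of mice without heme, and lower signals of single genes for coenzyme A (Vnn1, Pank1), peroxisomal oxidation (Ehhadh) and lipid synthesis (Gpam, Scd2). The single genes with higher signals included Hk2 (a hexokinase), Trim15 and Trim40 (tripartite motif proteins), and B3galt2 and B3galt5 (galactosyltransferases). Of the 14191 genes, 44 were called (0.31%), of which 25 were higher in KO heme (0.176%) and 19 were lower (0.134%). At an adjusted p below 0.05 there were 148 genes (1.04%). The median fold change over all 14191 genes was -0.0081, so that the called genes lay on both sides of an unshifted distribution. Of the 44 called genes 7 changed by more than 1 on the log2 scale and 19 by less than 0.5. In 36 of the 44 the KO heme and WT heme arrays did not overlap, each with a two-sided exact permutation p of 0.00216, the smallest that 6 against 6 arrays can give. Among all members 1.11% had groups that did not overlap. The same 12 arrays chose the 44 genes, so their lack of overlap and small permutation p follow in part from the choice. The fit over the 12 heme arrays alone, without the spread of the control arrays, called 17 genes, all among the 44. These were Fabp1, Cyp4a31, Ppara, Vnn1, Gpam, Glo1, Dnah8, Psd4, Btbd9 and Spg11 among the lower genes, and Tmem267, B3galt2, B3galt5, Trim40, Rusc2, Lrfn3 and Rpl4 among the higher. The other 27 lost their call there, with an adjusted p of 0.0127 for Hk2, 0.0443 for Trim15, 0.0132 for Pank1, 0.0983 for Ehhadh and 0.0852 for Scd2 in limma. Of the called genes 12 belonged to at least 1 of 38 gene lists of pathways and cell types, and 32 to none. The lists were chosen with earlier results of these data known, and the share of all members in them was not taken. When each of the 23 arrays was left out in turn, 28 of the 44 genes kept their call in every refit and 16 lost it in at least 1.

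**Figure D1:**
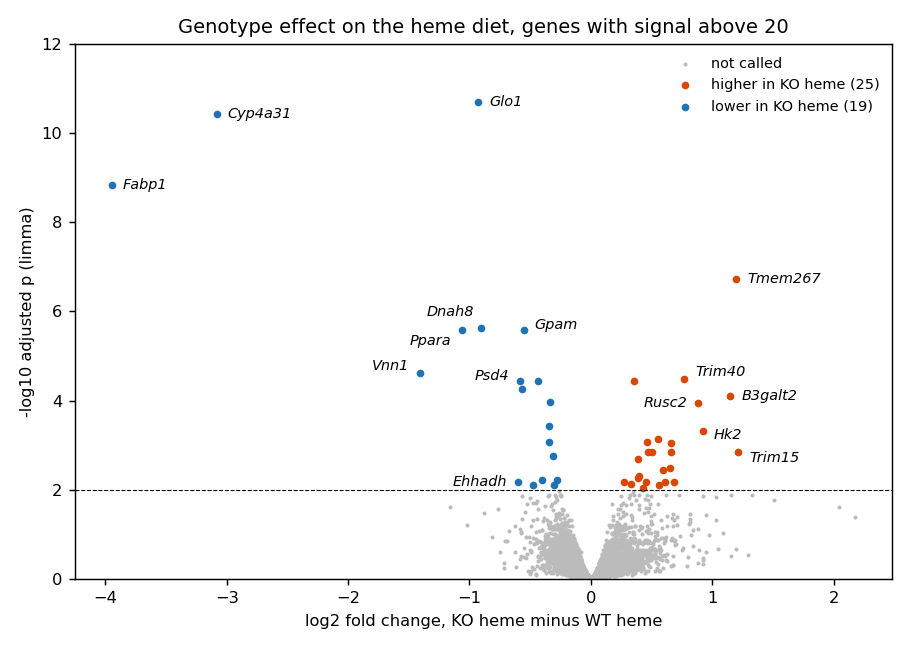
Log2 fold change (KO heme minus WT heme) against the -log10 of the limma adjusted p for the 14191 members, with the call limit as a dashed line at an adjusted p of 0.01. The 19 genes lower in KO heme include the 2 with the largest change, Fabp1 and Cyp4a31, and most of the 25 higher genes changed by less than 1.

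Ppara itself, the disrupted gene, was lower in every KO heme array than in any WT heme array. Its signal ran from 344 to 475 (median 418) in WT heme and from 163 to 238 (median 193) in KO heme, with a fold change of -1.06 ± 0.11 (SE, limma adjusted p = 2.60e-06). Where this probe set lies relative to the disruption is not known here, so that the value is no full check of the genotype. Neither of the other PPAR genes was called: Ppard, the widely expressed member, had a fold change of -0.064 ± 0.053 (limma adjusted p = 0.683). Pparg, the member best known from adipocytes and also abundant in colonocytes, had 0.12 ± 0.09 (limma adjusted p = 0.651), and 0.21 (limma adjusted p = 0.154) without KO heme array 1. Among the 17 genes for PPAR receptors, their partners and coregulators only Ppara was called, and the list median was -0.022 (-0.05 without that array).

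Fabp1, the liver-type fatty acid-binding protein that carries long-chain fatty acids in the cytosol, had the largest fold change of all members. Its signal in WT heme ran from 174 to 827 (median 449), and in KO heme from 21.0 to 30.0 (median 28.5). The KO heme arrays thus lay at the level of the WT control arrays, 21.7 to 27.8 (median 26.3), and all 6 were below the lowest WT heme array. The fold change was -3.94 ± 0.26, or 15.4-fold less in KO heme (limma adjusted p = 1.44e-09). KO control and WT control overlapped, with a fold change of 0.31 (limma adjusted p = 0.967) and 1 KO control array at 67.8. The genotype effect differed between the diets by -4.25 (95% CI -5.03 to -3.47, limma adjusted p = 8.34e-07). The lowest of its group for Fabp1 was KO heme array 1, and without it the fold change was -3.87.

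Cyp4a31, of the cytochrome P450 4a family that starts ω-oxidation of fatty acids, followed the same course. In WT heme its signal ran from 80.9 to 214 (median 93.3), and in KO heme from 10.1 to 14.5 (median 12.1), under the signal limit of 20 on all 6 arrays. Its signal was also under 20 in both control groups, where the fold change was -0.17 (limma adjusted p = 0.987). The fold change on the heme diet was -3.08 ± 0.17 (limma adjusted p = 3.77e-11), and the difference between diets was -2.91 (95% CI -3.42 to -2.41, limma adjusted p = 5.11e-07). Cyp4a31 passed the signal limit through WT heme alone, and no detection call was at hand to tell the other groups from background, so that these are values as measured. With the signal limit of 20 as the floor for KO heme, the WT heme mean was at least 5.16-fold higher. Fabp1 and Cyp4a31 were the 2 genes called for the difference between diets, of 14366 genes tested (0.0139%).

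Cyp4a10, a close relative of Cyp4a31, had no probe set of its own and was not analysed here as a gene. A probe set shared by Cyp4a31 and Cyp4a10 ran from 410.05 to 945 (median 603) in WT heme and from 40.7 to 57.0 (median 45.7) in KO heme, with a fold change of -3.70. A second one, shared by Cyp4a32, Cyp4a31 and Cyp4a10, ran from 209.8 to 507 (median 301) in WT heme and from 24.4 to 29.3 (median 27.0) in KO heme, with a fold change of -3.56. Both had groups that did not overlap and a difference between diets (-3.28 and -3.18), so 3 probe sets of this family gave the same direction. They share sequence and are no independent measurements. The other measured Cyp4 genes were not called: Cyp4f14 had a fold change of -0.35 (limma adjusted p = 0.134) and Cyp4b1 of -0.69 (limma adjusted p = 0.145). The list of 10 Cyp4 hydroxylases had a median of -0.096.

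The promoter of Fabp1 is shown because this gene changed most and because PPAR and RXR bind a DR1 element, AGGTCANAGGTCA, which is a repeat of AGGTCA with 1 base in between. The sequence is that of RefSeq (GRCm38.p6, chr6:71199629-71199928, plus strand), from 250 bases before to 50 bases after the gene start. It comes from the reference strain and not from a 129 mouse, and capitals mark the only stretch that matched the element with at most 2 mismatches, on the minus strand.
Fabp1 promoter: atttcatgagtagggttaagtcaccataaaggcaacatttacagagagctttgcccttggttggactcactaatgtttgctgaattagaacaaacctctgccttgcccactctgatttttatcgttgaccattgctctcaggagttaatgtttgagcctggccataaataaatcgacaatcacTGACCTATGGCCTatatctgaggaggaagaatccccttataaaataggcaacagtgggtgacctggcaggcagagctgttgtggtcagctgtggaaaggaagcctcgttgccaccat
The stretch lies at -67 to -55 from the gene start and differs from the element by 1 mismatch. With at most 1 mismatch on either strand, the element was present in 1 of 18 promoters of called lower genes, in 0 of 27 of called higher genes and in 65 of 14144 promoters of all members (0.46%). With at most 2 mismatches it was present in 1 of 18, in 1 of 27 (that of Runx1) and in 458 promoters (3.24%). AGGTCA alone was present in 13.2% of all promoters, 2 of 18 of the called lower and 5 of 27 of the called higher genes. Promoters were at hand for 14 of the 19 lower and 19 of the 25 higher genes, and not for Cyp4a31 or Vnn1. A match describes these letters only, not binding.

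Other genes of fatty acid uptake and binding moved less. Slc27a2, a fatty acid transport protein with acyl-CoA synthetase activity, had a signal from 159 to 464 (median 324) in WT heme and from 121 to 325 (median 193) in KO heme. The groups overlapped and the fold change of -0.63 ± 0.23 was not called (limma adjusted p = 0.245). Slc27a4, the related transporter of the small intestine, had a fold change of -0.29 (limma adjusted p = 0.0343). Cd36, the fatty acid translocase, lay on the other side: its signal was 117 to 200.2 (median 171) in WT heme and 205 to 262 (median 236) in KO heme, without overlap, but it was not called (0.52, limma adjusted p = 0.145). Of the 16 members of this list Fabp1 alone was called, and the median was -0.10. The list mean per array was below WT heme in all 6 KO heme arrays, with Fabp1 as its largest part.

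**Figure D2:**
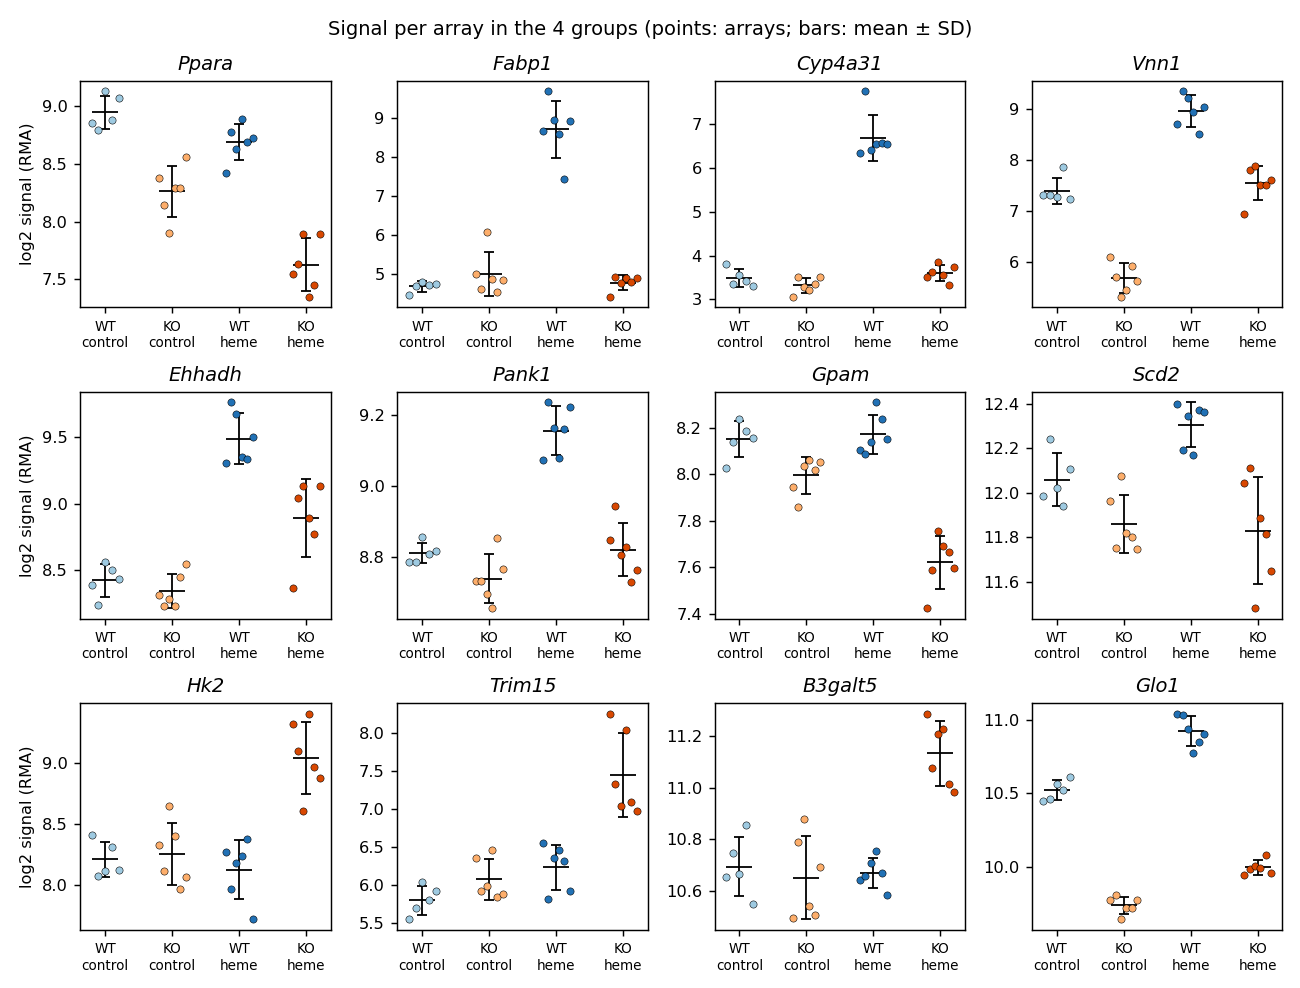
Log2 signal of 12 called genes on each of the 23 arrays, by group, with mean ± SD. KO heme arrays of Fabp1 and Cyp4a31 lie at the level of both control groups, Vnn1 and Glo1 are lower in KO mice on both diets, and the KO heme means of Hk2, Trim15 and B3galt5 are above those of the 3 other groups.

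Among the oxidation genes, the called change was in the peroxisome. Ehhadh, the bifunctional enzyme of peroxisomal β-oxidation, had signals from 635 to 869 (median 691) in WT heme and from 329.9 to 563 (median 502) in KO heme. All KO heme arrays lay below all WT heme arrays, with a fold change of -0.60 ± 0.11 (limma adjusted p = 0.00686). Both heme groups nevertheless had medians above the WT control median of 345. The call of Ehhadh was lost in 7 of the 23 refits (adjusted p up to 0.0229). It was kept without KO heme array 1, with a fold change of -0.50. Hsd17b4, the second bifunctional enzyme of this pathway, had -0.28 (limma adjusted p = 0.0172) and groups that did not overlap. Acaa1a and Acaa1b, the peroxisomal thiolases, had -0.18 and -0.49 and were not called, and Acaa1b had -0.29 without KO heme array 1. The 20 peroxisomal genes had a median of -0.067, with 1 called lower and 0 higher.

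Mitochondrial oxidation and fuel switching showed no called gene. The 19 genes of mitochondrial fatty acid oxidation had a median of 0.0056 (0.048 without KO heme array 1) and a range from -0.19 to 0.15. Cpt1a, which admits fatty acids to mitochondria, had 0.066 (95% CI -0.054 to 0.18). Pdk4, which turns off pyruvate oxidation, had -0.027 with a wide interval (95% CI -0.62 to 0.57), with KO heme array 1 at 584 and the other 5 between 1345 and 1768, and 0.19 without that array. Angptl4, a secreted lipase inhibitor, had -0.016 (95% CI -0.35 to 0.32) and Acot1, a cytosolic acyl-CoA thioesterase, -0.18 (95% CI -0.46 to 0.097). Without KO heme array 1 the fold changes were 0.10 for Angptl4 and -0.068 for Acot1. Plin2, which coats lipid droplets, had 0.22 (limma adjusted p = 0.146). Of these genes none was called, although all are known as PPAR targets, and the intervals of Pdk4 and Angptl4 leave room for changes of either sign.

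Coenzyme A genes contained 2 of the called lower genes. Vnn1, a pantetheinase at the epithelial surface that releases the precursor of coenzyme A, had signals from 364 to 649 (median 508) in WT heme and from 124 to 236 (median 189) in KO heme. Its fold change was -1.41 ± 0.16 (limma adjusted p = 2.40e-05) on the heme diet and -1.70 (limma adjusted p = 3.69e-06) on the control diet, where KO signals ran from 40.0 to 68.9 (median 51.3). The groups did not overlap on either diet, and the difference between diets was 0.29 (95% CI -0.19 to 0.78). Pank1, pantothenate kinase at the first step of coenzyme A synthesis, had signals from 539.6 to 603 (median 574) in WT heme and from 425 to 493 (median 452) in KO heme. KO heme arrays lay near both control groups, and the fold change was -0.34 ± 0.044 (limma adjusted p = 1.10e-04) against -0.071 on the control diet. The difference between diets of -0.26 (95% CI -0.40 to -0.13) did not pass adjustment (limma adjusted p = 0.264). A second probe set of Pank1 had -0.37 and was not called (limma adjusted p = 0.373). Of the 11 genes of this list 5 were lower at an unadjusted p below 0.05, a limit that 8.24% of all members passed in this direction and 6.48% in the other. The list median was -0.14, and -0.074 without KO heme array 1.

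Lipid synthesis held 2 called lower genes, Gpam and Scd2. Gpam, the mitochondrial acyltransferase that begins glycerolipid synthesis, had signals from 272 to 317 (median 283) in WT heme and from 172 to 216 (median 198) in KO heme. KO heme lay below all 3 other groups, since WT control ran from 261 to 302 (median 286) and KO control from 232 to 267 (median 261). The fold change was -0.55 ± 0.055 (limma adjusted p = 2.63e-06), and -0.15 (limma adjusted p = 0.711) on the control diet. The difference between diets was -0.40 (95% CI -0.56 to -0.23, limma adjusted p = 0.152).

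Scd2, a stearoyl-CoA desaturase, had signals from 4611 to 5404 (median 5238) in WT heme and from 2858 to 4424 (median 3689.7) in KO heme, without overlap. Its fold change was -0.48 ± 0.088 (limma adjusted p = 0.00798), but the call was lost in 16 of the 23 refits (adjusted p up to 0.0246). Scd1, the related desaturase, had the larger change of -1.16 ± 0.25 and was not called (limma adjusted p = 0.0246), with signals from 1557 to 1785 (median 1625) in WT heme and from 365 to 1047 (median 859) in KO heme. Fasn, fatty acid synthase, had -0.26, Acaca, acetyl-CoA carboxylase, -0.28, and Srebf1, the transcription factor of this pathway, -0.31, with none called. Of 28 genes 11 were lower and 2 higher at an unadjusted p below 0.05 (8.24% and 6.48% of all members). The list median was -0.15. KO heme array 1 had the lowest list mean (8.50 on the log2 scale), yet the other 5 KO heme arrays (8.70 to 8.74) also lay below all WT heme arrays (8.80 to 8.89). Without KO heme array 1 the median was -0.078, and Dgat2, the acyltransferase that completes triacylglycerol, was then called with a higher value in KO heme (0.43, limma adjusted p = 3.23e-04). Cholesterol synthesis genes had a median of -0.18 over 20 genes, and none was called. Of them 7 were lower at an unadjusted p below 0.05 (8.24% of all members).

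The antioxidant genes governed by NRF2 held no call. Of 33 genes 10 were lower and 1 higher at an unadjusted p below 0.05 (8.24% and 6.48% of all members). The list median was -0.10. Cat, catalase of the peroxisome, had signals from 4162 to 5837 (median 4376) in WT heme and from 2326 to 4262 (median 3453) in KO heme, which overlapped (-0.45 ± 0.11, limma adjusted p = 0.0452). Nqo1, a quinone reductase, had -0.33 (limma adjusted p = 0.221), and Gclc, which limits glutathione synthesis, -0.31 (limma adjusted p = 0.21). Sod1, the cytosolic superoxide dismutase, had -0.081 (95% CI -0.18 to 0.021). The lowest list mean was that of KO heme array 1 (9.43). The other KO heme arrays (9.68 to 9.75) lay within the range of WT heme (9.55 to 9.91) through WT heme array 4 alone. All KO heme arrays lay below the remaining WT heme arrays (9.76 to 9.91). Without KO heme array 1 the list median was -0.076, and the fold changes were -0.34 for Cat, -0.22 for Nqo1 and -0.24 for Gclc. Fosl1, a partner of Jun in AP-1, shares its 2 probe sets with Ccdc85b. Their fold changes were 0.75 (limma adjusted p = 0.534) and -0.065 (limma adjusted p = 0.836). Signals of the first overlapped, from 102 to 455 (median 131) in WT heme and from 110.5 to 795 (median 310.2) in KO heme.

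**Figure D3:**
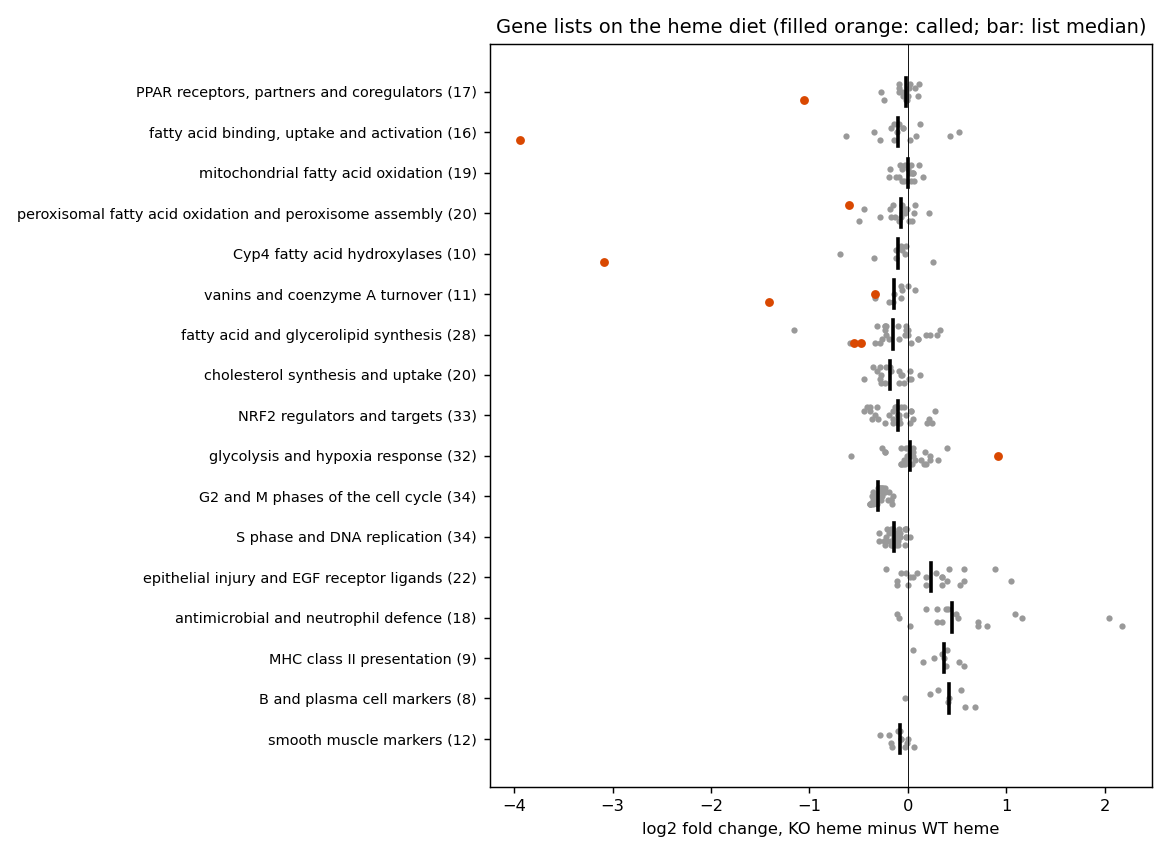
Log2 fold change (KO heme minus WT heme) of each gene in 17 lists, with the number of genes above the signal limit in brackets, called genes in orange and the list median as a bar. No list holds more than 2 called genes, the 34 genes of the G2 and M phases all lie below 0, and most antimicrobial genes lie above 0.

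The called higher genes were led by Trim15, Tmem267, B3galt2 and Hk2. Hk2, the hexokinase that commits glucose to glycolysis, had signals from 211 to 333 (median 296) in WT heme and from 390.4 to 680.3 (median 525) in KO heme, without overlap. The fold change was 0.92 ± 0.13 (limma adjusted p = 4.88e-04), and the medians of both control groups lay near that of WT heme, with a fold change of 0.044 between them. The difference between diets was 0.88 (95% CI 0.48 to 1.27, limma adjusted p = 0.211). Over the 32 genes of glycolysis and hypoxia the median was 0.021 (0.033 without KO heme array 1), and Hk2 was the only call. Without KO heme array 1, Slc2a1, the glucose transporter GLUT1, was called as well (0.31, limma adjusted p = 0.00335).

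Trim15 and Trim40, tripartite motif proteins encoded near each other in the major histocompatibility region, were both called. Trim15 had signals from 56.6 to 93.8 (median 81.2) in WT heme and from 126 to 306 (median 149) in KO heme (1.22 ± 0.19, limma adjusted p = 0.00144). Trim40 had signals from 97.9 to 120.2 (median 110.4) in WT heme and from 167 to 246 (median 179) in KO heme (0.77 ± 0.09, limma adjusted p = 3.26e-05). Neither gene overlapped between the groups on the heme diet, and KO control also lay above WT control for Trim40 (0.41, limma adjusted p = 0.187).

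A pair of galactosyltransferases that extend glycan chains was higher. B3galt2 had signals from 91.4 to 140.3 (median 131) in WT heme and from 201 to 311 (median 274) in KO heme (1.15 ± 0.15, limma adjusted p = 7.88e-05). B3galt5, known for the glycans of gut epithelium, had signals from 1536 to 1729 (median 1623) in WT heme and from 2025 to 2498 (median 2262) in KO heme (0.46 ± 0.069, limma adjusted p = 8.48e-04). For B3galt5 the 3 groups other than KO heme overlapped one another, and the difference between diets was 0.51 (95% CI 0.30 to 0.71, limma adjusted p = 0.152).

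Several called higher genes encode receptors, signals and regulators of the epithelium and of immune cells. Il4ra, the shared receptor chain for interleukins 4 and 13, had signals from 279 to 339 (median 308) in WT heme and from 375 to 514 (median 427) in KO heme (0.47 ± 0.075, limma adjusted p = 0.00144). Cd14, the coreceptor for bacterial lipopolysaccharide, had signals from 177 to 199 (median 188) in WT heme and from 236 to 443 (median 273) in KO heme (0.61 ± 0.11, limma adjusted p = 0.00673). The highest Cd14 value was KO heme array 1, and without it the fold change was 0.48 (limma adjusted p = 0.00138), while the call was lost in 7 of the 23 refits (adjusted p up to 0.0203). Btnl2, a butyrophilin-like protein that restrains T cells, had signals from 41.1 to 60.6 (median 54.2) in WT heme and from 59.9 to 104 (median 80.1) in KO heme (0.59 ± 0.10, limma adjusted p = 0.00369). All 12 arrays lay below WT control, which ran from 113 to 123 (median 117), and the call was lost in 2 of the refits. KO control ran from 135 to 183 (median 158), above all WT control arrays (0.42, limma adjusted p = 0.313).

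Myc, the growth-promoting transcription factor, had signals from 324 to 544 (median 409) in WT heme and from 514 to 728 (median 639.95) in KO heme, which overlapped (0.56 ± 0.10, limma adjusted p = 0.00798). The call was lost in 16 of the refits, among them the one without KO heme array 1 (0.51, limma adjusted p = 0.0147). Inhbb, the βB chain of activin B, had signals from 23.1 to 29.0 (median 27.1) in WT heme and from 33.8 to 61.8 (median 39.0) in KO heme (0.69 ± 0.12, limma adjusted p = 0.00673), and lost its call in 8. Plet1, a surface protein of epithelial progenitors, had signals from 1498 to 1903 (median 1743) in WT heme and from 1888 to 2923 (median 2587) in KO heme (0.56 ± 0.083, limma adjusted p = 7.32e-04). For Plet1 the KO heme and WT heme arrays overlapped, and all WT heme arrays lay below WT control, which ran from 2435 to 2798 (median 2679). The higher calls also held Itgb6, the epithelial integrin chain that activates TGFβ (0.40), Pde9a, which degrades cGMP (0.45), Sytl2, an effector of Rab27 in secretion (0.39), Asap1, which acts on Arf GTPases (0.43), and Runx1, a transcription factor (0.28). Of these, Asap1 lost its call in 20 of the 23 refits, Itgb6 in 7, Pde9a in 8 and Runx1 in 8, among them for Runx1 the one without KO heme array 1 (0.26, limma adjusted p = 0.0125). For Sytl2 the control groups did not overlap (0.27, limma adjusted p = 0.249).

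The remaining higher calls were of less known genes. Rusc2, which binds Rab proteins, had signals from 39.3 to 44.0 (median 40.4) in WT heme and from 64.6 to 88.3 (median 74.7) in KO heme (0.89 ± 0.12). Lrfn3, an adhesion protein known from synapses, had signals from 35.4 to 43.3 (median 37.4) in WT heme and from 52.6 to 68.6 (median 61.1) in KO heme (0.66 ± 0.10). Both lay apart between the heme groups, and Lrfn3 also between the control groups (0.52, limma adjusted p = 0.0598). Mb21d2 (0.50), BC018473 (0.65), Cpne2 (0.39) and the F-box genes Fbxo36 (0.66) and Fbxo34 (0.33) made up the rest together with the genes called on both diets. Mb21d2 also lay apart between the control groups (0.45, limma adjusted p = 0.0283). BC018473 lost its call in 4 of the refits, Fbxo34 in 14 and Cpne2 in 7. The fold change of Cpne2 was 0.32 without KO heme array 1.

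Among the lower calls outside lipid metabolism, Spg11, which acts in lysosome recovery, had signals from 317 to 344 (median 333) in WT heme and from 198 to 271 (median 219) in KO heme (-0.57 ± 0.07, limma adjusted p = 5.46e-05). Spg11 also lay apart between the control groups (-0.32, limma adjusted p = 0.187). Pop5, a subunit of ribonuclease P, had signals from 106 to 158 (median 116) in WT heme and from 85.8 to 101 (median 89.6) in KO heme (-0.41 ± 0.073), and a fold change of 0.12 on the control diet. Its difference between diets was -0.52 (95% CI -0.74 to -0.31, limma adjusted p = 0.152), and its call was lost in 6 of the refits. Ttll5, a tubulin polyglutamylase (-0.34), Yeats2, a chromatin reader (-0.34), Dpysl2, a tubulin-binding protein (-0.31), Cenpl, of the centromere (-0.30), and Cd2bp2, of the spliceosome (-0.28), completed this group. The control groups did not overlap for Yeats2 (-0.16, limma adjusted p = 0.584). Cenpl lost its call in 16 of the refits and Cd2bp2 in 8, for Cd2bp2 also without KO heme array 1 (-0.27, limma adjusted p = 0.0109).

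Part of the 44 genes differed between the genotypes without heme as well. On the control diet 10 of 14254 genes were called (0.0702%), and 8 of these were among the 44: Vnn1, Ppara, Glo1, Dnah8, Psd4, Btbd9, Rpl4 and Tmem267. Glo1, glyoxalase 1 of methylglyoxal detoxification, had signals from 1753 to 2108 (median 1939) in WT heme and from 986 to 1086 (median 1018) in KO heme, without overlap. Its signals in WT control ran from 1397 to 1563 (median 1472) and in KO control from 799.95 to 896 (median 860.3), without overlap as well. Its fold changes were -0.93 ± 0.047 on the heme diet and -0.78 on the control diet (limma adjusted p = 2.03e-11 and 2.15e-09). Its second probe set gave -0.87 on the heme diet. Tmem267, a transmembrane protein, was higher in KO mice on both diets (1.20 and 1.10), with signals from 60.1 to 89.4 (median 74.8) in WT heme and from 151 to 206 (median 165) in KO heme.

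Dnah8, an axonemal dynein (-0.91 and -0.77), Psd4, an exchange factor for Arf6 (-0.58 and -0.51), and Btbd9 (-0.44 and -0.61) were lower on both diets. Rpl4, a protein of the large ribosomal subunit, was higher on both (0.36 and 0.41). A second probe set of Dnah8 had -0.18 on the heme diet and was not called (limma adjusted p = 0.409). In the RefSeq order of genes with signal above 20, Btbd9, Glo1 and Dnah8 are adjacent, and Pde9a lies within 10 genes of Glo1. Trim15 and Trim40 are also adjacent and Asap1 and Myc lie within 10 genes of each other, so that 8 of the 44 genes had a called neighbor. Ppara had no called gene among its 20 nearest genes in this order. The share of all members with a called neighbor was not taken, so the count of 8 has no base to compare with.

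**Figure D4:**
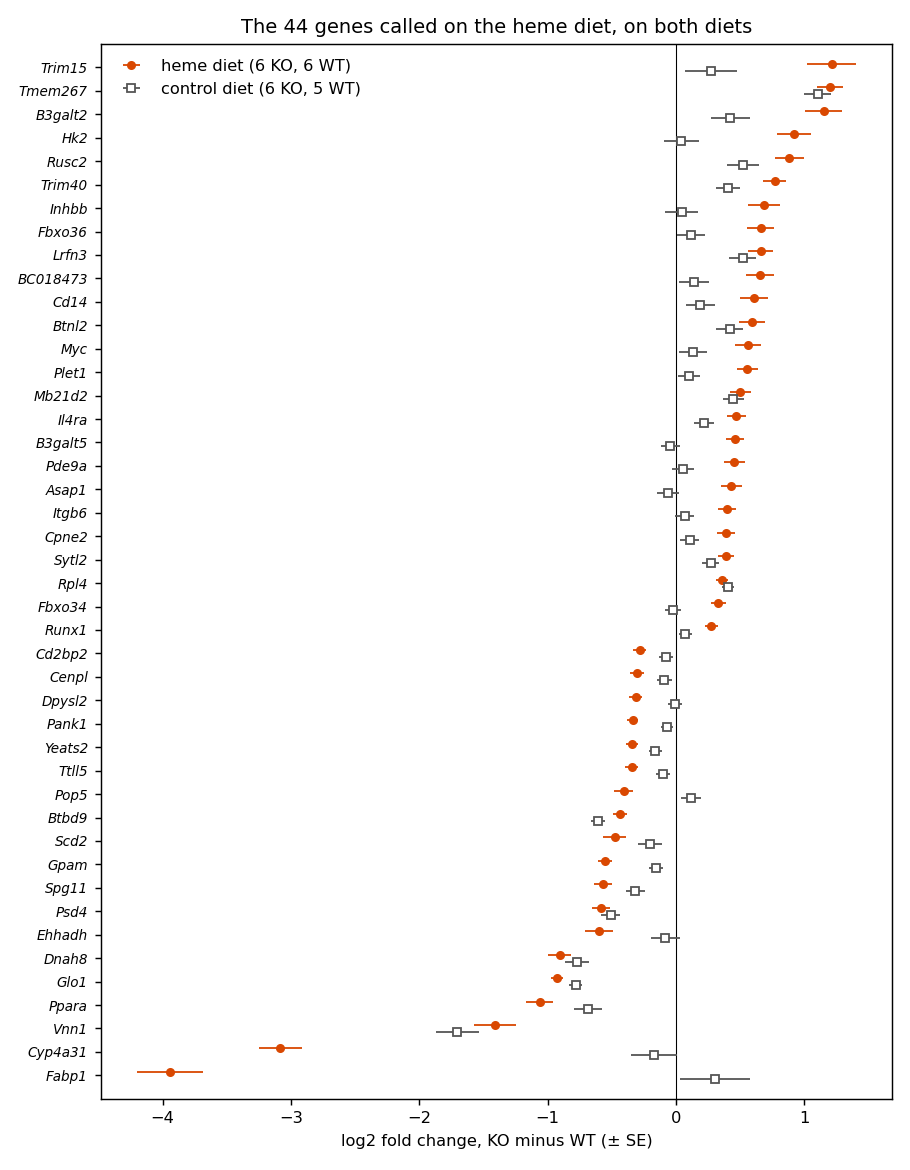
Log2 fold change (KO minus WT, ± SE) of the 44 genes called on the heme diet, on the heme diet (filled) and in other mice on the control diet (open). Fabp1, Cyp4a31 and Hk2 lie near 0 on the control diet, whereas Tmem267, Glo1, Dnah8 and Vnn1 lie at a similar distance from 0 on both.

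On the control diet 39 of the 44 genes (88.6%) had the same sign as on the heme diet, and 55.6% of all members did. The heme-diet values chose the 44 genes, so this compares other mice with a chosen list. The difference between diets had an unadjusted p below 0.05 in 35 of the 44, and in 1051 of the 14366 genes tested for it. The heme-diet values that chose the 44 are part of this difference, so the choice itself favors small p-values among them. Beyond Fabp1 and Cyp4a31 the lowest adjusted p of the difference among the 44 was 0.152 in limma, so that for the other 42 a genotype effect particular to heme was not shown. Sccpdh, outside the 44, had the next smallest p for the difference (-0.57, 95% CI -0.77 to -0.36, limma adjusted p = 0.0532), with -0.27 on the heme diet and 0.30 on the control diet.

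Antimicrobial and neutrophil defense genes had mostly positive fold changes, though none was called. Of 18 genes 11 were higher and 0 lower at an unadjusted p below 0.05 (6.48% and 8.24% of all members). The list median was 0.45. Reg3b, an antimicrobial lectin, had signals from 191 to 2957 (median 849.98) in WT heme and from 1052 to 5441 (median 4188) in KO heme. The groups overlapped for Reg3b (2.18 ± 0.51, limma adjusted p = 0.0413). Reg3g, its close relative, had signals from 230.4 to 1802 (median 583) in WT heme and from 919 to 3656 (median 2746) in KO heme (2.05 ± 0.44, limma adjusted p = 0.0246). The medians of both control groups lay between those of the heme groups for Reg3b and Reg3g, with fold changes of 0.19 and 0.21.

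Duox2, the epithelial oxidase that releases hydrogen peroxide, had signals from 314 to 414 (median 359) in WT heme and from 429 to 1020.2 (median 567) in KO heme (0.71 ± 0.17, limma adjusted p = 0.0417). Duoxa2, its maturation factor, had signals from 132 to 189 (median 166) in WT heme and from 249 to 719 (median 350.4) in KO heme (1.16 ± 0.23, limma adjusted p = 0.0129). Neither overlapped between the heme groups, and neither did Lcn2, the siderophore-binding lipocalin (0.81), or Nos2, the inducible nitric oxide synthase (1.09). Leaving out KO heme array 1 gave 0.55 for Duox2, 0.96 for Duoxa2, 0.62 for Lcn2 and 0.75 for Nos2. The list mean per array was 6.56 to 6.84 in WT heme and 7.11 to 7.82 in KO heme on the log2 scale. The highest was KO heme array 1 (7.82), and the other 5 (7.11 to 7.40) also lay above WT heme, with a list median of 0.38 without it.

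B and plasma cell markers had a median of 0.41 over 8 genes, and their list mean was 6.57 to 7.08 in WT heme and 6.21 to 8.45 in KO heme on the log2 scale, so that the groups overlapped. Without KO heme array 1 the median was 0.14. MHC class II genes had a median of 0.37 over 9 genes and of 0.17 without that array. Macrophage and dendritic cell markers had 0.22 over 12 genes, with Cd14 as the only call, and 0.12 without the array. Mast cell markers had 0.24 over 8 genes, with list means of 5.80 to 6.50 in WT heme and 6.16 to 7.24 in KO heme on the log2 scale. The part of these cells in the higher calls and in the antimicrobial genes was not tested.

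**Figure D5:**
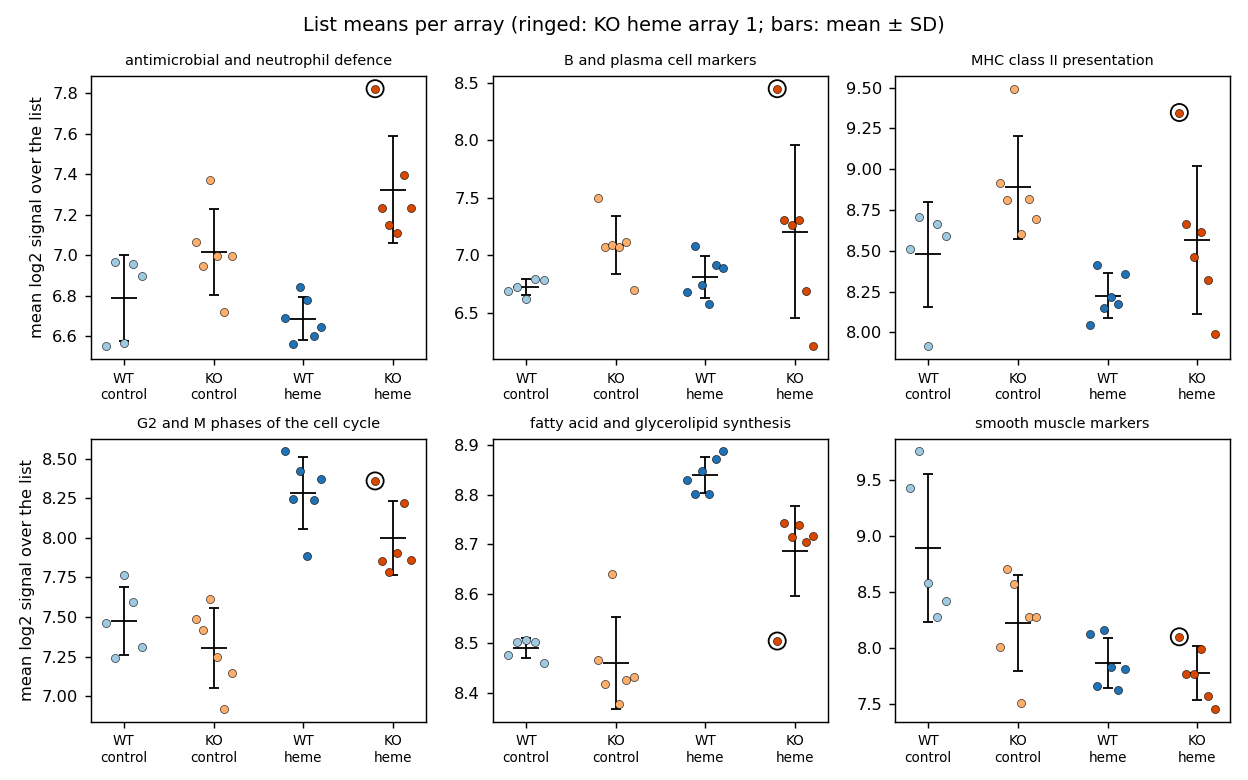
Mean log2 signal over the genes of 6 lists on each of the 23 arrays, with mean ± SD per group and KO heme array 1 ringed. The antimicrobial list separates KO heme from WT heme on all arrays, whereas for B and plasma cell markers and MHC class II genes the groups overlap and the ringed array is the highest.

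No gene in the lists of the G2 and M phases or of S phase was called, and Cenpl (-0.30), called above, was in neither. All 34 genes of the G2 and M phases had negative fold changes, from -0.39 to -0.15. Of them 18 had an unadjusted p below 0.05, as did 8.24% of all members in this direction. The list mean was 7.89 to 8.54 in WT heme and 7.78 to 8.36 in KO heme on the log2 scale, which overlapped. These genes vary together between mice, so that their number does not add precision. Mki67, the proliferation antigen Ki67, had signals from 1110.4 to 1565 (median 1373) in WT heme and from 1068 to 1528 (median 1147) in KO heme (-0.16, 95% CI -0.39 to 0.065). Replication genes of S phase had a median of -0.14. KO heme array 1 had the highest list mean of its group (8.36), and without it the G2 and M median was -0.38, and 31 of 34 genes were below 0 at an unadjusted p below 0.05, against 9.24% of all members in the same refit. The 4 inhibitors of proliferation that the study singled out, Wif1 (0.0056), Il15 (-0.19), Ihh (-0.25) and Bmp2 (0.057), were not called, with overlapping groups.

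Smooth muscle markers measure how much of the underlying muscle a scraping took along. Over 12 genes their median was -0.076, with list means of 7.62 to 8.16 in WT heme and 7.45 to 8.10 in KO heme on the log2 scale, and none was called. With the smooth muscle mean as a covariate 58 genes were called, 43 of the 44 among them. On the control diet the marker median was -0.66, and the part of muscle in the control-diet values was not tested beyond this covariate. Of the 38 lists 28 held no called gene.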

How the data were processed

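Expression was measured on Affymetrix Mouse Gene 1.1 ST arrays, run on one plate of 24, with RNA from the colon mucosa of 1 mouse per array. The deposited values are log2 signals that the authors normalized by RMA over the arrays, with a software version that the sources used here do not give. The methods describe reorganized probe sets, whereas the deposited table holds 35556 probe sets of the platform, which were named through the platform annotation. A single gene was named for 21218 probe sets, several for 1881 and none for 12457. RefSeq served for names (21185 matched) and gene order only, and no coordinates but those of the promoter table were used.

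Each gene was represented by the probe set with the highest mean over the 23 arrays (18820 genes, of which 1386 had several). Limma (lmFit and eBayes) was fitted on all genes with a mean for each of the 4 groups, so that the 23 arrays shared one spread, and p-values were adjusted by Benjamini-Hochberg over all 18820 genes. Counts refer to genes with mean signal above 20 in either group compared, or in any group for the difference between diets. Exact permutation tests over the 12 heme arrays were two-sided. The fit was tested on simulated data with 200 changed of 18820 genes over 5 runs for the genotype effect on the heme diet. It recovered 78.6% of changes of 0.5, 95.6% of 1 and 100.0% of 2 on the log2 scale, with 2.6 false calls on average. The number of arrays limits the precision, and array data give no counts of molecules.

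Members and gene lists were chosen with earlier results of these data known. By rule the text could name the 15 called genes with the largest fold change in each direction and genes called on both diets. The rule also took up to 4 called genes per list and the 5 genes with the smallest p for the difference between diets. It further took 28 fixed genes of PPARα action, antioxidant defense, AP-1 and proliferation, and the shared probe sets of Cyp4a10 and Fosl1. The other genes were named after their values were seen. No single-gene probe set was found for 74 listed genes, which were not analysed here. Sources differ on the RNA kit (Qiagen RNeasy in the labels, Promega in the text) and on the fat (palm and corn oil, or mainly palm oil). Alternatives covered normalization, the prior, the signal filter, the choice of probe set, a smooth muscle covariate, a replicate block and leaving out each array. R 4.3.3, limma 3.58.1, Python 3.11.15, numpy 2.4.6, pandas 2.3.3 and matplotlib 3.10.9 were used.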

Additional observations from a re-analysis of the deposited data

Results flagged for a closer look

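The genotype effect differed between the heme and the control diet for Fabp1 (difference -4.25), for Cyp4a31 (-2.91), and for the probe sets shared with Cyp4a10 (-3.28 for probe set 10507163 and -3.18 for probe set 10507177), each past the limma test of the difference itself.

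Single arrays lay far from the others of their group in 20 of 204 groups tested, judged by the gap to the nearest array as a share of the whole range of the group. Chance gives such a gap in about 1 of 20 groups. KO heme array 1 was the far array in 12 of the 20. The shares for KO heme array 1 were 0.713 for Cd14, 0.813 for Cpne2, 0.725 for Fabp1, 0.636 for Fbxo36, 0.753 for Pdk4, 0.811 for Psd4, 0.639 for Sytl2 and 0.811 for Ttll5. In list means they were 0.742 for acyl-CoA thioesterases, 0.742 for lipid droplet genes, 0.835 for fatty acid and glycerolipid synthesis and 0.777 for NRF2 genes. Other KO heme arrays gave 1 such gap, 0.751 for Sod1 in array 3. In WT heme the shares were 0.733 for Cat and 0.84 for Cyp4a31, both in array 2, and 0.804 for Gclc in array 4. WT heme array 1 was far in the list means of mitochondrial fatty acid oxidation (0.66), lipid droplet genes (0.629) and epithelial injury genes (0.741), and array 6 in enteric nerve markers (0.638). For Cyp4a31 the far array was the brightest of its group, and no WT heme array overlapped with KO heme.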

How the results depend on the processing

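Of the 44 genes called on the heme diet, 17 (7 higher and 10 lower) were called in the fit over the 12 heme arrays alone. Array weights gave 70 calls (42 higher) and a limit of 0.05 on the adjusted p gave 148 (82 higher and 66 lower). The replicate block gave 51 calls (31 higher). Same-numbered heme arrays did not pair, since their deviations from the group means correlated between -0.15 and 0.26 with 3 of 6 pairs over 0.1. When 1 array at a time was left out, calls on the heme diet ran from 28 (without KO heme array 4) to 69 (without KO heme array 1), with 14 to 40 higher and 14 to 29 lower, calls on the control diet from 8 to 12, and calls of the difference between diets were 2 in each. Besides KO heme array 4, the calls of the 44 genes were lost most without WT heme array 3 (14 lost) and WT heme array 6 (14 lost). On linear signal the two-way model called 0 genes for the difference between diets, against 2 in limma on the log2 scale. Called genes kept their direction in all alternatives. Direction turned in 3 uncalled genes. Angptl4 had 1.49 in signal units on the linear scale and -0.095 to 0.10 on the log2 scale without single arrays. Pdk4 had 0.095 with array weights, 23.6 in signal units on the linear scale and -0.13 to 0.19 without single arrays. Wif1 had -0.047 with array weights, -0.0062 with the smooth muscle covariate, -0.075 in signal units on the linear scale and -0.067 to 0.053 without single arrays. The fit of all probe sets as features, chosen after seeing the data, called 51 of 25491. The number of arrays limits the smallest change that can be seen, and the low KO heme signals of Cyp4a31 and Fabp1 limit how well the size of their change is known.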

Other observations

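Epithelial injury genes and ligands of the EGF receptor held no call and had a median of 0.24. At an unadjusted p below 0.05, 7 of 22 were higher and 0 lower in KO heme (6.48% and 8.24% of all members). Their list means overlapped between the groups (7.89 to 8.74 in WT heme and 7.95 to 8.85 in KO heme on the log2 scale). Markers of enteroendocrine cells, the hormone-secreting cells of the epithelium, had a median of 0.11 over 11 genes. Their list means did not overlap, at 7.76 to 7.89 in WT heme and 7.91 to 8.08 in KO heme, although no member was called. Tph1, the enzyme of serotonin synthesis in these cells, had signals from 91.5 to 119 (median 101) in WT heme and from 124 to 159.5 (median 133) in KO heme (0.43 ± 0.15, limma adjusted p = 0.221). Goblet cell markers had a median of -0.017, with Muc2, the main mucin of the colon, at -0.017 (95% CI -0.093 to 0.058). These were 0.0088 and 0.01 without KO heme array 1.

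Mcpt1 and Mcpt2, proteases of mucosal mast cells, had fold changes of 0.92 and 0.93 with groups that overlapped (limma adjusted p = 0.342 and 0.37). Lgr5, the receptor that marks stem cells of the crypt base, had signals from 198 to 235 (median 216) in WT heme and from 155 to 203 (median 169) in KO heme and was not called (-0.33 ± 0.071, limma adjusted p = 0.0238). Without KO heme array 1 it was called (-0.38, limma adjusted p = 0.00474), as were Hilpda, which inhibits lipolysis at lipid droplets (0.75, limma adjusted p = 0.00261), and Guca2b, the colonocyte peptide uroguanylin (0.39, limma adjusted p = 0.0032). Without that array 69 genes were called, 41 of the 44 among them.

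Interferon-stimulated genes had a median of 0.10 on the heme diet and 0.37 on the control diet over 20 genes, and MHC class II genes of 0.37 and 0.49 over 9 genes, with no call on the heme diet in either list. The heme-diet medians were 0.049 and 0.17 without KO heme array 1. That array had the highest interferon list mean (7.06 on the log2 scale, against 6.38 to 6.75 in the other KO heme arrays and 6.25 to 6.88 in WT heme). Aldo-keto reductases and related enzymes of carbonyl detoxification held 1 call, Glo1, with a median of -0.19. This median was -0.13 without KO heme array 1. Of the 17 genes 6 were lower at an unadjusted p below 0.05 (8.24% of all members).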
